A study of Homo sapiens with 16 samples.

Results

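The snoRNA host genes described here are GAS5, SNHG1, SNHG5, SNHG6, SNHG7, SNHG8, SNHG12, SNHG15, SNHG16 and ZFAS1. They were chosen by name, and all 10 were found among the 58735 genes of each count table. Earlier results of these data were known when these hosts and the gene lists further on were chosen. Their numbers of calls describe the chosen genes and are not a test of them as sets. Small nucleolar RNAs (snoRNAs) guide the chemical modification of ribosomal RNA, and most human ones are cut out of the introns of longer host transcripts. C/D box snoRNAs guide 2′-O-methylation and H/ACA box snoRNAs guide pseudouridylation. In noncoding hosts, such as the 10 here, the spliced RNA that remains encodes no long protein. For hosts such as GAS5 that RNA is known to be engaged by ribosomes and then removed by nonsense-mediated decay, a pathway coupled to translation. Many hosts begin with a C followed by pyrimidines, the 5′ terminal oligopyrimidine (TOP) start they share with ribosomal protein genes, so their RNA levels are known to move with both growth signaling and decay.

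Host levels were read from poly-A RNA of MDA-MB-231 and SUM159PT, which are established human lines from triple-negative breast cancer and carry the genotype label WT. Cells received by lipofection (Lipofectamine2000) either a non-targeting guide RNA (sgNTS) or a guide RNA against YES1 (sgYES1), a Src-family tyrosine kinase, and were collected 48 h after transfection. There were 4 replicates of each of the 4 combinations, 16 libraries in all. No source used here names the protein that worked with the guide RNA, and the series calls the replicates technical, so p-values measure only the spread between these samples.

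YES1 itself fell from 109 ± 3.12 to 43.1 ± 1.14 CPM (counts scaled to library size by the TMM method, mean ± SD, n = 4) in MDA-MB-231 and from 92.9 ± 3.78 to 39.4 ± 0.870 CPM in SUM159PT. Libraries held 14352042 to 25124164 counts. MDA-MB-231 sgNTS replicate 4 stood apart from its group, with 2.34% of its counts on mitochondrial genes against 3.81% to 5.15% in the other 3 controls, and results that change without it are given as such. The breast cancer line markers VIM, CD44, KRT8, KRT18 and EGFR were all abundant, PGR and CD3E had 0 counts in all 16 libraries, and the group means of the leukocyte gene PTPRC and the endothelial gene CDH5 reached at most 0.232 and 0.108 CPM. PECAM1, the other endothelial marker, had group means of 1.39 CPM with sgNTS and 2.44 CPM with sgYES1 in MDA-MB-231 (log2 fold change 0.83, edgeR adjusted p = 0.0307) and of 0.809 and 1.27 CPM in SUM159PT (0.61, edgeR adjusted p = 0.130), and its part in the host values was not tested. The luminal gene GATA3 was present at 8.83 to 19.1 CPM, while ESR1 reached at most 0.257 CPM.

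Together the hosts took 0.0620% ± 0.00417 of all counts in MDA-MB-231 sgNTS libraries and 0.0894% ± 0.00104 in sgYES1 libraries (SD, n = 4). In SUM159PT the order was the opposite, 0.111% ± 0.00565 with sgNTS and 0.0931% ± 0.00322 with sgYES1. The control libraries of the 2 lines thus started far apart, and with sgYES1 the summed shares lay close together. Single hosts still differed between lines with sgYES1, in both directions. Per kilobase of gene model SNHG5 had 47.2 CPM in MDA-MB-231 and 66.1 CPM in SUM159PT, and GAS5 had 52.9 and 41.4 CPM.

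The first bases of a transcript hold the TOP start, so the region around the RefSeq start site is shown for the members with an entry (GRCh38.p14), from 45 bases before to 25 bases after the start. An entry matched 8 of the 10 members, and SNHG6 and SNHG15 had none. Each sequence reads 5′ to 3′ on the strand of the gene. Capitals mark a C followed by at least 4 pyrimidines close to the start (15 bases before to 20 after) and the letters TATAA between 40 and 16 bases upstream. For GAS5 no tract was found at the RefSeq start, which lay 1056 bases upstream of the start of GAS5-210 in GENCODE 29, the annotation of the count tables. The first 30 bases of that transcript are shown, chosen because it begins with the tract, as do the 6 of 29 transcripts that share its start.
GAS5 (GENCODE 29, chr1:173867960-173867989, minus strand): CTTTTCgaggtaggagtcgactcctgtgag
ZFAS1 (chr20:49278597-49278666, plus strand): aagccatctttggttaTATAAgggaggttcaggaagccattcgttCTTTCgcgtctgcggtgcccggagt
SNHG5 (chr6:85678709-85678778, minus strand): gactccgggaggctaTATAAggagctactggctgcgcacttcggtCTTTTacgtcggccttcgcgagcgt
SNHG8 (chr4:118278717-118278786, plus strand): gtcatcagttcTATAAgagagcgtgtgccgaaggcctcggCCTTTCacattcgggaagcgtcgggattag
SNHG12 (chr1:28581849-28581918, minus strand): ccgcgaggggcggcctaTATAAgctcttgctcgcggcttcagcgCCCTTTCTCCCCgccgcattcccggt
SNHG7 (chr9:136728160-136728229, minus strand): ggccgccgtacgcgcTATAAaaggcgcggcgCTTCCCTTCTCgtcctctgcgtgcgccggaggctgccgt
SNHG16 (chr17:76557719-76557788, plus strand): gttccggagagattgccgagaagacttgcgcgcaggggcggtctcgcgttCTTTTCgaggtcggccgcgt
SNHG1 (chr11:62855861-62855930, minus strand): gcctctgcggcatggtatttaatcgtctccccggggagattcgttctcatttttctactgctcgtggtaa

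In the RefSeq windows the pyrimidine tract was found in 6 of the 8 members, against 43.2% of 27305 RefSeq promoters searched in the same way. Only in SNHG5 and ZFAS1 was its first base the RefSeq start itself. It began at base -1 in SNHG12, -5 in SNHG8 and 6 in SNHG16. In SNHG7 it began at base -14 and, at 11 bases long, ended before the start. A tract in the window is thus not by itself a TOP start. TATAA at 40 to 16 bases upstream was found in 5 of 8, ZFAS1, SNHG5, SNHG8, SNHG12 and SNHG7, against 4.22% of promoters. Searched on either strand over the whole 300 bases of the promoter entries, which includes that window, TATAA was found in 6 of 8 members and in 21.1% of promoters. The letters CACGTG, the core bound by MYC and related factors, occurred on either strand in SNHG7 only, 1 of 8, against 7.43% of promoters. TGATGNAA, a pattern of the stress response factor ATF4, occurred in 0 of 8 and in 3.67% of promoters. A match describes letters in these windows and is not a measured binding site, and the choice of start site decides which letters fall in a window.

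In MDA-MB-231 the hosts rose with sgYES1. Of the 10, 8 were called higher, 1 (SNHG16) was called lower and 1 (SNHG7) was not called, at an adjusted p under 0.05 in edgeR's quasi-likelihood test over all genes. Across the 15427 genes tested, 20.8% were called higher and 22.1% lower, 42.8% in all. With library totals as the only scaling, 59.8% of the calls over all genes were higher, against 48.5% with TMM scaling, and the same 8 and 1 member counts were found. The median log2 fold change was 0.64 over the members and 0.01 over all genes tested. Each of the 9 called members had groups that did not overlap, against 39.2% of all genes tested (18.8% with sgYES1 above and 20.4% with sgYES1 below). In bulk RNA, fewer cells of a kind and less RNA per cell cannot be told apart.

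Among the hosts of C/D box snoRNAs, ZFAS1 carries the SNORD12 family in its introns and lies at chr20:49278178-49295738 (plus strand, hg38). Its level was 27.6, 29.3, 27.9 and 25.8 CPM in sgNTS replicates 1 to 4 and 57.3, 57.8, 56.2 and 57.7 CPM in sgYES1 replicates 1 to 4. The sgYES1 libraries fell in a narrow range, far above the highest control. The log2 fold change was 1.05 (SE 0.05, 2.07-fold, edgeR quasi-likelihood adjusted p = 1.31e-09), the largest of the 10.

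GAS5, named for its accumulation in growth-arrested cells and host of a series of C/D box snoRNAs (chr1:173863900-173868882, minus strand), stood at 117, 119, 112 and 103 CPM with sgNTS. With sgYES1 it stood at 191, 192, 194 and 198 CPM. The lowest sgYES1 library lay far above the highest control, and the log2 fold change was 0.78 (SE 0.04, 1.72-fold, edgeR adjusted p = 1.03e-08).

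SNHG6 (chr8:66921684-66926398, minus strand), host of SNORD87, had 34.6, 33.8, 28.6 and 28.99 CPM in controls and 49.1, 51.7, 55.1 and 51.6 CPM with sgYES1, with no overlap. Its log2 fold change was 0.72 (SE 0.07, edgeR adjusted p = 1.04e-06). SNHG1 (chr11:62851988-62855914, minus strand), which holds 7 annotated snoRNA genes including SNORD25 to SNORD28, had 128, 124, 109 and 103 CPM in controls and 156, 146, 156 and 155 CPM with sgYES1, a log2 fold change of 0.40 (SE 0.06, edgeR adjusted p = 8.58e-05). Here the control libraries were spread more widely than the sgYES1 libraries, and still every control was below every sgYES1 library. SNHG5 (chr6:85660950-85678748, minus strand), host of SNORD50B, rose from 111, 112, 102 and 102 CPM to 128, 139, 132 and 137 CPM, a log2 fold change of 0.33 (SE 0.04, edgeR adjusted p = 3.45e-05), the smallest of the 8 rises.

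SNHG16 (chr17:76557766-76565348, plus strand), host of SNORD1A, SNORD1B and SNORD1C, moved the other way. It had 48.5, 52.0, 48.5 and 43.9 CPM in controls and 39.1, 42.5, 38.5 and 40.5 CPM with sgYES1. The lowest control was just above the highest sgYES1 library. Its log2 fold change was -0.26 (SE 0.06, edgeR adjusted p = 0.00171).

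Of the 4 hosts of H/ACA box snoRNAs, SNHG12, SNHG15 and SNHG8 rose and SNHG7 was not called. SNHG12 (chr1:28578538-28583132, minus strand), which holds SNORA16A, SNORA44 and SNORA61 as well as the C/D box gene SNORD99, had 31.0, 33.5, 26.4 and 20.6 CPM in controls and 52.1, 49.8, 55.5 and 51.8 CPM with sgYES1. Relative to their mean its controls were the most dispersed of the 10 hosts, and the log2 fold change was 0.91 (SE 0.11, 1.88-fold, edgeR adjusted p = 1.02e-05). SNHG15 (chr7:44983023-44986961, minus strand), host of SNORA9, had 36.2, 32.3, 28.1 and 26.8 CPM in controls and 54.3, 45.4, 49.95 and 49.94 CPM with sgYES1, a log2 fold change of 0.69 (SE 0.08, edgeR adjusted p = 1.41e-05). SNHG8 (chr4:118278709-118279823, plus strand), host of SNORA24, had 34.6, 31.6, 34.2 and 27.2 CPM in controls and 49.3, 46.6, 47.5 and 47.2 CPM with sgYES1, a log2 fold change of 0.58 (SE 0.07, edgeR adjusted p = 8.18e-06). In both genes the lowest sgYES1 library lay well above the highest control.

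SNHG7 (chr9:136721366-136728184, minus strand), host of SNORA17A and SNORA17B, had 101, 95.2, 104 and 91.2 CPM in controls and 105, 99.6, 101 and 101 CPM with sgYES1. The groups overlapped. Its log2 fold change of 0.05 had a 95% interval from -0.04 to 0.15 (edgeR adjusted p = 0.358), which leaves out changes of the size seen in the 8 risers.

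**Figure D1:**
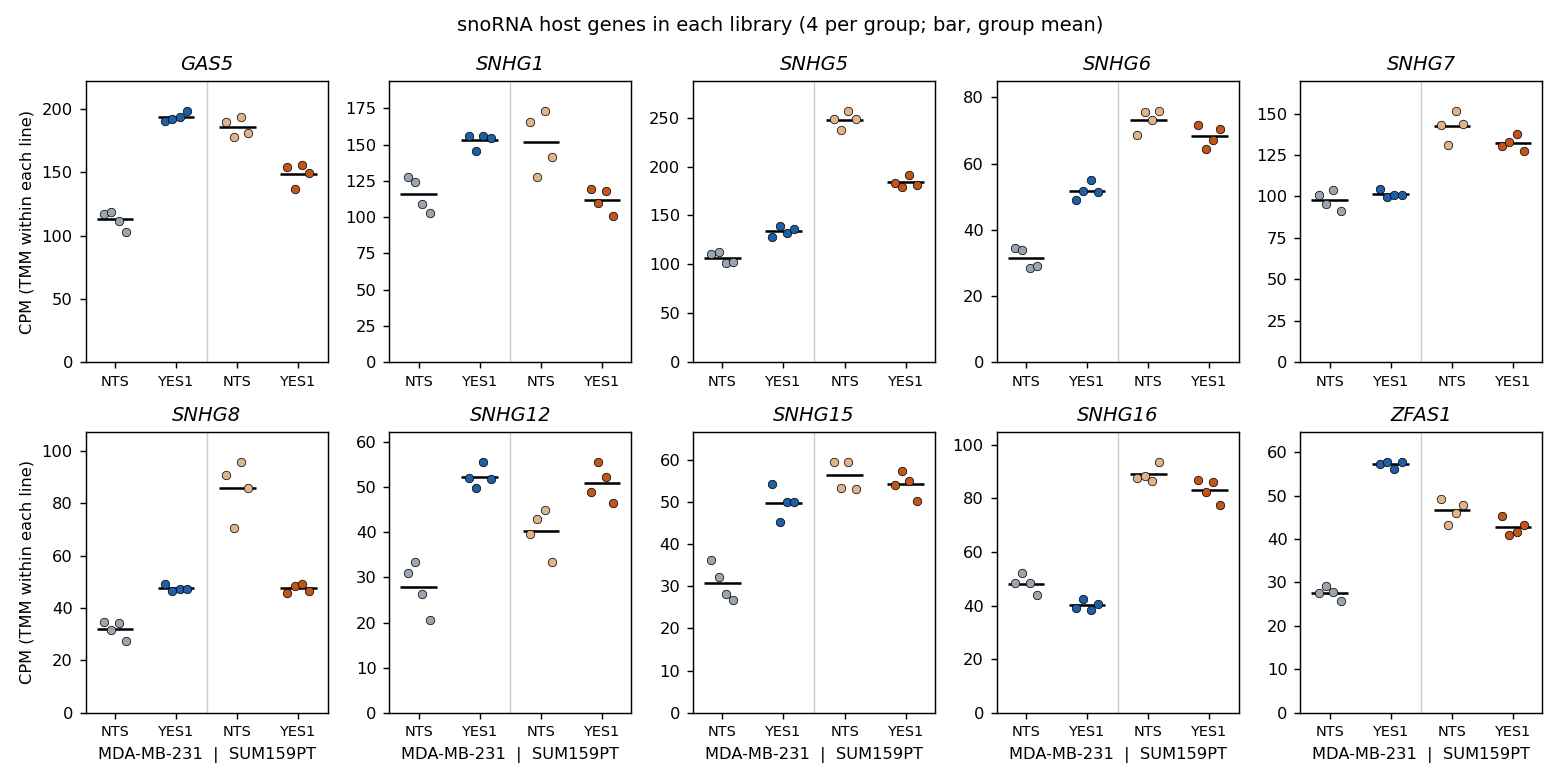
Level of each host gene in every library, in CPM (TMM-scaled within each cell line), for sgNTS and sgYES1 libraries of MDA-MB-231 (left of the grey line) and SUM159PT (right), with a bar at the mean of 4 libraries. GAS5 and ZFAS1 rise well clear of their controls in MDA-MB-231, and SNHG8 falls from a mean of 85.9 to 47.6 CPM in SUM159PT.

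MDA-MB-231 sgNTS replicate 4 was low for the hosts as a set. Its mean deviation from the control mean over the 10 hosts was -0.16 (log2 CPM), against 0.10, 0.09 and -0.03 in replicates 1, 2 and 3. Without it SNHG12, the called host whose value moved most, still rose by 0.79 on the log2 scale (edgeR adjusted p = 4.85e-08), and the 8 higher calls and the 1 lower call were all made.

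In SUM159PT fewer hosts were called and most calls were in the other direction. SNHG8, SNHG5, SNHG1 and GAS5 fell with sgYES1, SNHG12 rose, and the other 5 were not called. Over the 14479 genes tested in this line, 19.7% were called lower and 19.6% higher, 39.4% in all. The median log2 fold change over the members was -0.11, against -0.01 over all genes tested. The 5 called members had groups that did not overlap, as did 35.3% of all genes tested (17.7% above and 17.6% below), and the groups of the other 5 overlapped.

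SNHG8 had the largest fall. Its level was 91.1, 70.8, 95.9 and 86.0 CPM in sgNTS replicates 1 to 4 and 45.9, 48.6, 49.4 and 46.4 CPM in sgYES1 replicates 1 to 4. Replicate 2 was the lowest control and still far above every sgYES1 library. The log2 fold change was -0.85 (SE 0.07, 1.81-fold lower, edgeR adjusted p = 8.62e-09).

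SNHG5 had 249, 238, 257 and 248 CPM in controls and 184, 179, 192 and 181 CPM with sgYES1. Both groups were tight, and the log2 fold change was -0.43 (SE 0.04, edgeR adjusted p = 5.13e-08). SNHG1 had 166, 128, 173 and 142 CPM in controls and 119, 109.8, 118 and 101 CPM with sgYES1, a log2 fold change of -0.44 (SE 0.07, edgeR adjusted p = 6.02e-05). The controls of SNHG1 spread over a range as wide as the difference itself, with the lowest only just above the sgYES1 group. GAS5 had 189.7, 178, 194 and 181 CPM in controls and 155, 137, 156 and 149 CPM with sgYES1, a log2 fold change of -0.31 (SE 0.05, edgeR adjusted p = 1.80e-05).

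SNHG12 was the single member that was called higher in both lines. In SUM159PT it had 39.6, 43.1, 44.9 and 33.5 CPM in controls and 49.1, 55.7, 52.3 and 46.5 CPM with sgYES1. The lowest sgYES1 library lay just above the highest control, and the log2 fold change was 0.34 (SE 0.08, edgeR adjusted p = 0.00121).

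The 5 hosts not called in SUM159PT all had fitted values a little below 0. ZFAS1, the largest riser of the other line, had 49.1, 43.3, 46.0 and 47.9 CPM in controls and 45.3, 40.9, 41.5 and 43.3 CPM with sgYES1, a log2 fold change of -0.12 (edgeR adjusted p = 0.102). SNHG7 had a log2 fold change of -0.11 (edgeR adjusted p = 0.0766). Without SUM159PT sgNTS replicate 2, both were called lower, ZFAS1 at -0.16 (edgeR adjusted p = 0.0458) and SNHG7 at -0.15 (edgeR adjusted p = 0.0156). SNHG6 had a log2 fold change of -0.10 with a 95% interval from -0.21 to 0.01, SNHG16 of -0.10 from -0.20 to 0.01 and SNHG15 of -0.06 from -0.18 to 0.07. These intervals leave out rises of the size that SNHG6 and SNHG15 had in MDA-MB-231.

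**Figure D2:**
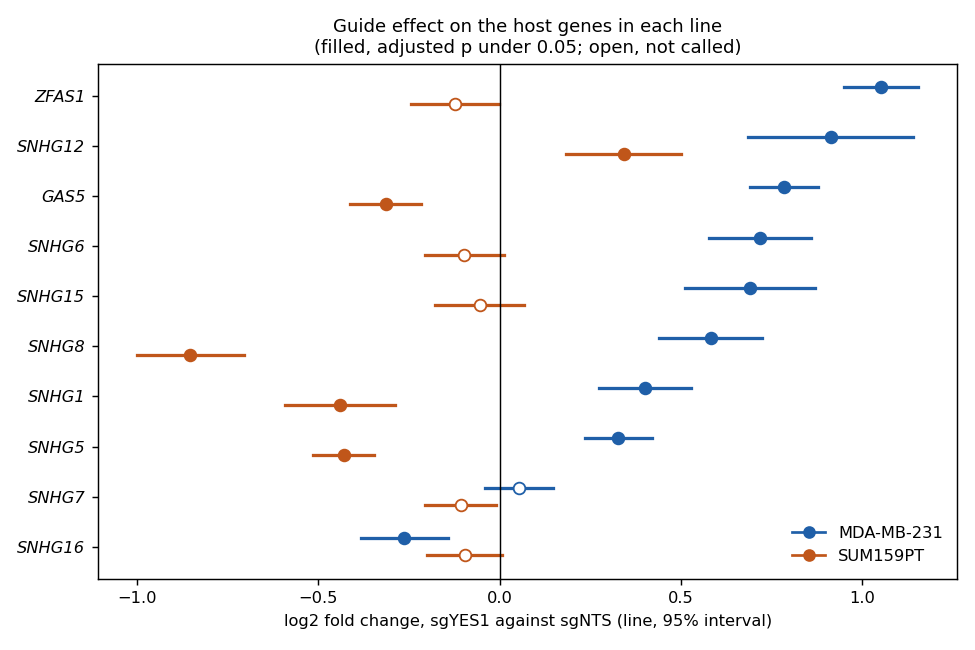
Log2 fold change of each host gene, sgYES1 against sgNTS, in MDA-MB-231 (blue) and SUM159PT (orange). Horizontal lines are 95% intervals of the fit, filled points are adjusted p under 0.05, and the genes are ordered by their value in MDA-MB-231, from ZFAS1 at 1.05 to SNHG16 at -0.26.

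Whether the hosts responded differently in the 2 lines was tested as the line by guide interaction in the fit of all 16 libraries. For 8 of the 10 members the log2 fold change was called lower in SUM159PT than in MDA-MB-231 (edgeR adjusted p under 0.05). Of the 10, 0 were called higher by edgeR, at an unadjusted p under 0.05 or by DESeq2. Over the 16640 genes tested, 11.9% were called lower, 12.7% higher and 24.5% in either direction. The median difference was -0.80 over the members and -0.01 over all genes tested.

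SNHG8 had the largest difference, -1.45 (SE 0.11, edgeR adjusted p = 5.10e-10), followed by ZFAS1 at -1.18 (SE 0.08, edgeR adjusted p = 6.66e-11) and GAS5 at -1.11 (SE 0.07, edgeR adjusted p = 2.63e-11). SNHG8, GAS5, SNHG1 and SNHG5 were called in both lines with opposite directions. For ZFAS1, SNHG6 and SNHG15 the difference arose beside a rise in MDA-MB-231 and no call in SUM159PT. The differences of SNHG1, SNHG6, SNHG5 and SNHG15 lay between -0.85 and -0.76, with edgeR adjusted p from 1.70e-09 to 9.09e-06. SNHG12, which rose in both lines, rose less in SUM159PT by 0.58 on the log2 scale (SE 0.14, edgeR adjusted p = 0.00360).

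SNHG7 and SNHG16 were not called for a difference between lines. The difference was -0.17 for SNHG7 (95% interval -0.31 to -0.03, edgeR adjusted p = 0.0619) and 0.15 for SNHG16 (95% interval -0.0018 to 0.31, edgeR adjusted p = 0.143). Both calls depended on single libraries, and that of SNHG7 also on the scaling. SNHG16 was called higher in SUM159PT without MDA-MB-231 sgNTS replicate 4 (0.23, edgeR adjusted p = 0.0215) or without MDA-MB-231 sgYES1 replicate 2 (0.22, edgeR adjusted p = 0.0471). SNHG7 was called lower without SUM159PT sgNTS replicate 2 (-0.17, edgeR adjusted p = 0.0487) and with library totals as the only scaling (-0.18, edgeR adjusted p = 0.0489). So it was without both SUM159PT sgNTS replicate 2 and MDA-MB-231 sgNTS replicate 4 (-0.17, edgeR adjusted p = 0.0468). Without MDA-MB-231 sgNTS replicate 4 alone the SNHG7 difference was smaller and not called (-0.11, edgeR adjusted p = 0.264).

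**Figure D3:**
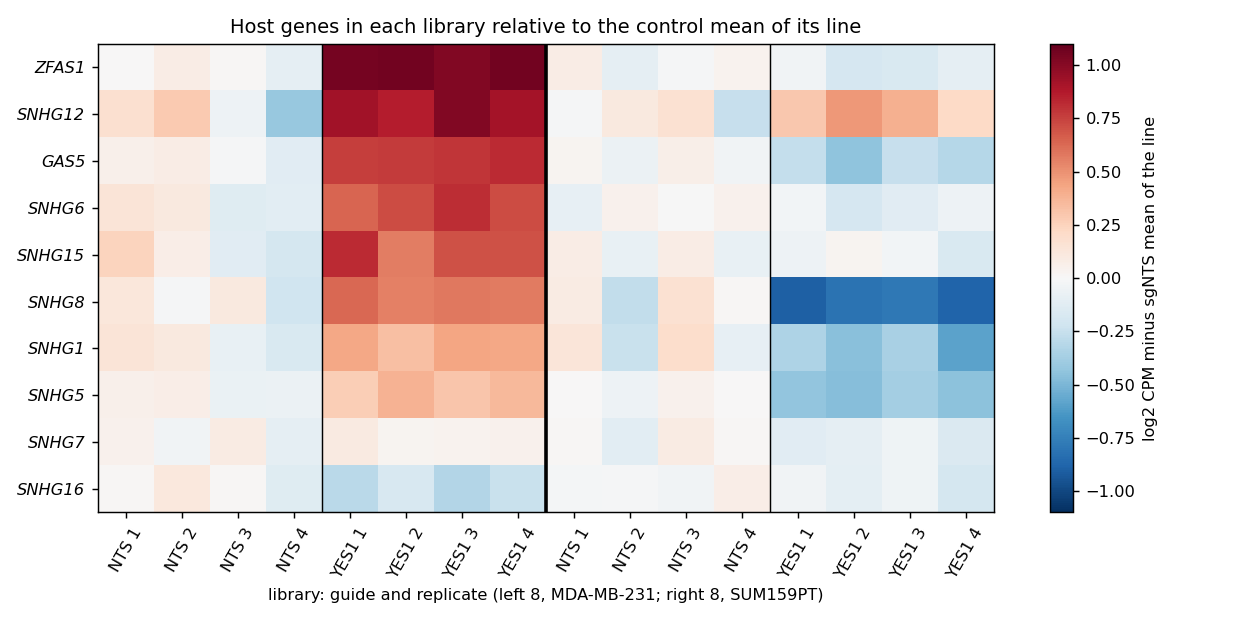
Log2 CPM of each host gene in each of the 16 libraries minus the mean of the 4 sgNTS libraries of the same line; red is above and blue below that mean. The red block of sgYES1 libraries in MDA-MB-231 covers the 8 called risers, and in SUM159PT the deepest blue is SNHG8, with SNHG12 the single red row.

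Control levels of the hosts also differed between lines. All 10 were higher in SUM159PT sgNTS than in MDA-MB-231 sgNTS libraries, with log2 differences from 0.43 to 1.47 and a median of 0.85, where 40.5% of genes tested were called higher and 41.3% lower, 81.8% in all, and the median of all genes was -0.01. The control groups did not overlap for any of the 10 hosts, nor for 75.9% of all genes tested. These values share the control libraries with the guide comparisons above, and line cannot be told apart from the separate tables and handling of the lines. The widest gaps were those of SNHG8 at 1.47 (SE 0.08, edgeR adjusted p = 1.39e-15), SNHG6 at 1.26 (SE 0.06, edgeR adjusted p = 5.95e-16) and SNHG5 at 1.25 (SE 0.04, edgeR adjusted p = 2.39e-19). The narrowest was that of SNHG1 at 0.43 (SE 0.08, edgeR adjusted p = 1.39e-05).

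Levels of different hosts were compared per kilobase of gene model, with all 16 libraries scaled together. The gene models merge all exons, retained introns included, so a value per kilobase understates a spliced host with a long merged model. They also keep bases shared with other genes, such as 42.6% of SNHG7 with FAM69B and 2.5% of SNHG5 with SNORD50B. The part of shared bases in the order of the hosts was not tested. In MDA-MB-231 sgNTS libraries SNHG5 had the highest level, 37.6 ± 2.05 CPM per kb (SD, n = 4), and the order went on with SNHG8 at 34.1, GAS5 at 30.7, SNHG1 at 30.5, SNHG6 at 24.96 and SNHG7 at 22.2 CPM per kb. Each of these 6 overlapped its neighbour in the order. ZFAS1 stood apart below them at 12.2 ± 0.657 CPM per kb, and SNHG16, SNHG15 and SNHG12 followed at 8.88, 8.36 and 6.45 CPM per kb, again overlapping.

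With sgYES1 the order in MDA-MB-231 changed. GAS5 led at 52.9 ± 0.908 CPM per kb, overlapping SNHG8 at 51.1, and both lay above SNHG5 at 47.2 CPM per kb. ZFAS1 at 25.2 CPM per kb passed SNHG7 at 23.1 without overlap, and SNHG16 became the lowest at 7.41 CPM per kb.

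In SUM159PT sgNTS libraries SNHG8 at 94.4 ± 11.9 and SNHG5 at 89.5 ± 2.93 CPM per kb led and overlapped each other. SNHG6 at 59.6 and GAS5 at 51.8 CPM per kb followed, each clear of its neighbours. SNHG12 was the lowest at 9.56 CPM per kb. With sgYES1 SNHG8 fell to 52.0 CPM per kb, close to its 51.1 CPM per kb in MDA-MB-231 sgYES1 libraries, and SNHG5 alone led at 66.1 CPM per kb. The control levels of SNHG8 differed widely between lines, and its sgYES1 ranges in the 2 lines overlapped.

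**Figure D4:**
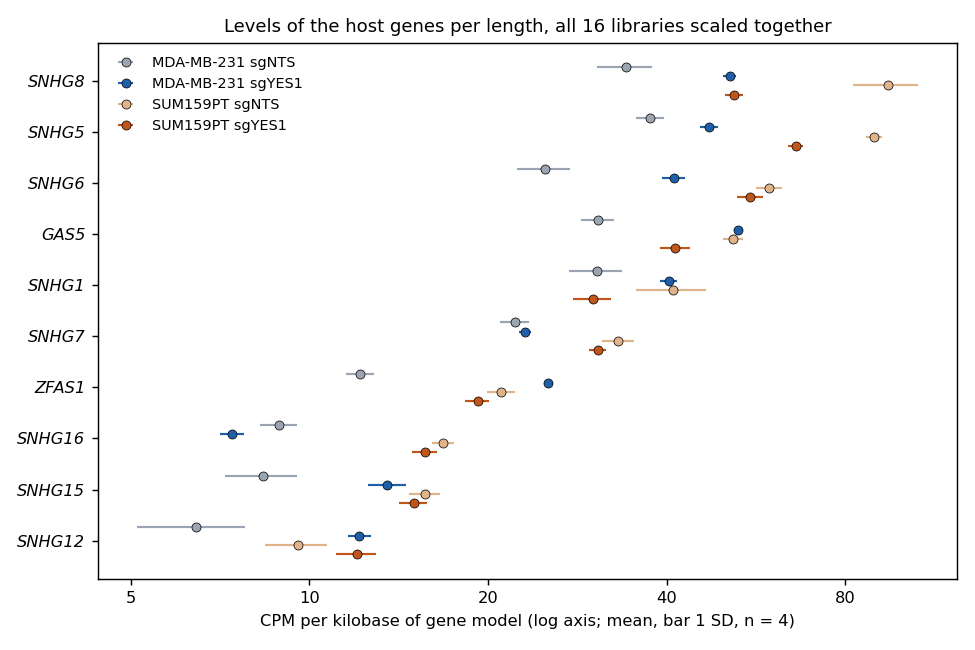
Level of each host gene per kilobase of gene model (CPM per kb, all 16 libraries scaled together, log axis) in the 4 groups, as mean with a bar of 1 SD (n = 4). SNHG8 and SNHG5 of the SUM159PT sgNTS group lie farthest right at 94.4 and 89.5, and SNHG12, SNHG15 and SNHG16 lie lowest in every group.

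Mature snoRNAs carry no poly-A tail, and these libraries were made from poly-A RNA. By coordinates, GAS5 held no annotated snoRNA gene. Inside the other 9 members lay 26 annotated snoRNA gene entries, some at nearly the same bases, such as those named SNORA17B. The 4 of them with no base in a host exon all had counts, in sums over 16 libraries of 141 for SNORD99 in SNHG12, 72 for SNORD12B and 54 for SNORD12C in ZFAS1 and 28 for SNORD1B in SNHG16. The other 22 share bases with a host exon of the merged model and had 0 counts in every library, where a count of 0 allows up to 3 counts, or 0.119 to 0.209 CPM by library. No source used here states how the counting treated reads that fall in both genes. None of these snoRNA genes passed the filter on low counts, so no host change could be set beside one of its snoRNAs.

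Several hosts overlap genes on the opposite strand, and whether the counting used strand is not settled. FAM69B shares 1850 bases, 42.6% of the exon bases of SNHG7. FAM69B itself rose in MDA-MB-231 by 0.43 on the log2 scale (edgeR adjusted p = 0.000228), while SNHG7 was not called there. ZNFX1 shares 249 bases, 11.1% of the exon bases of ZFAS1. ZNFX1 had a log2 fold change of 0.12 in MDA-MB-231 (edgeR adjusted p = 0.0557), where ZFAS1 rose by 1.05, and rose by 0.43 in SUM159PT (edgeR adjusted p = 6.17e-07), where ZFAS1 was not called. MCMDC2, with 29.3% of SNHG6's exon bases, and AC015802.6, with 30.6% of SNHG16's, had 116 and 63 counts in all 16 libraries together. ZBTB37 shares 3.55% of GAS5's exon bases. Its log2 fold change was 0.28 in MDA-MB-231 (edgeR adjusted p = 0.0751) and -0.31 in SUM159PT (edgeR adjusted p = 0.0213). The part of shared reads in the host values was not tested.

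Other noncoding snoRNA hosts are a list of further genes of the same kind, of which 20 were found in the tables. In MDA-MB-231, 8 of 15 tested were called higher (53.3%, against 20.8% of all genes tested) and 1 lower (6.67%, against 22.1%). The median log2 fold change was 0.22. In SUM159PT 5 of 15 were called lower (33.3%, against 19.7%), 0 higher (against 19.6%) and the other 10 not called. The median there was -0.32. SNHG11 rose 2.04-fold from 7.85 ± 0.239 CPM in MDA-MB-231 (log2 fold change 1.03, edgeR adjusted p = 2.17e-07), and SNHG17 from 62.1 ± 7.26 to 113 ± 6.94 CPM (0.87, edgeR adjusted p = 3.43e-07). EPB41L4A-AS1 rose in MDA-MB-231 by 0.66 (edgeR adjusted p = 4.41e-06) and fell in SUM159PT by 0.44 (edgeR adjusted p = 3.69e-05), on the log2 scale. SNHG3 fell from 102 ± 2.21 to 73.5 ± 3.79 CPM in SUM159PT (-0.47, edgeR adjusted p = 1.96e-07). Levels of SNHG14 were near 0 in MDA-MB-231 sgNTS libraries (0 to 0.169 CPM) and 46.6 ± 1.56 CPM in SUM159PT sgNTS libraries.

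Protein-coding hosts, such as ribosomal protein and translation factor genes that also carry snoRNAs in introns, were counted in the same way. Of 39 tested in MDA-MB-231, 4 were called higher (10.3%, against 20.8% of all genes tested) and 9 lower (23.1%, against 22.1%), with a median of -0.02. In SUM159PT 2 were called higher (5.13%, against 19.6%) and 22 lower (56.4%, against 19.7%), with a median of -0.13. RPL3, a protein of the large ribosomal subunit, fell by 0.15 on the log2 scale in MDA-MB-231 (edgeR adjusted p = 0.00160) and by 0.32 in SUM159PT (edgeR adjusted p = 1.35e-06). HSPA8, a constitutive heat shock chaperone and host of C/D box snoRNAs, rose in SUM159PT from 744 ± 237 to 1857 ± 59.5 CPM (1.32, edgeR adjusted p = 3.90e-08), and the other host of this list called higher there was NOP56. TOP genes other than ribosomal proteins, which partly overlap that list, gave 1 higher and 8 lower of 16 tested in each line. These were 6.25% higher and 50% lower in each line, to be set against the same shares of all genes. EEF1A1, the elongation factor that delivers aminoacyl-tRNA, fell by 0.26 on the log2 scale in SUM159PT (edgeR adjusted p = 1.64e-06) and by 0.08 in MDA-MB-231 (edgeR adjusted p = 0.0395).

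Transcripts reported as substrates of nonsense-mediated decay included several called in opposite directions in the 2 lines. In MDA-MB-231 10 of 18 were called higher (55.6%, against 20.8% of all genes tested) and 2 lower (11.1%, against 22.1%), with a median of 0.14. In SUM159PT 5 were called higher (27.8%, against 19.6%) and 7 lower (38.9%, against 19.7%), with a median of 0.01. GADD45A, a growth arrest and stress gene, rose from 100.2 ± 1.17 to 198 ± 6.48 CPM in MDA-MB-231 (0.98, edgeR adjusted p = 1.35e-10) and fell from 425 ± 87.9 to 225 ± 21.2 CPM in SUM159PT (-0.92, edgeR adjusted p = 2.79e-07). ATF4, the transcription factor of the integrated stress response, rose by 0.24 on the log2 scale in MDA-MB-231 (edgeR adjusted p = 7.99e-05) and fell by 0.66 in SUM159PT (edgeR adjusted p = 1.99e-09). ATF3, induced by the same response, rose by 1.54 in MDA-MB-231 (edgeR adjusted p = 3.91e-09) and had a log2 fold change of 0.08 in SUM159PT (edgeR adjusted p = 0.582). The list is led by genes that the integrated stress response also induces, and the part of each pathway was not tested.

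The factors of nonsense-mediated decay were called in both directions. In MDA-MB-231, 2 of 23 tested were called higher (8.7%, against 20.8% of all genes tested) and 4 lower (17.4%, against 22.1%). In SUM159PT 7 were called higher (30.4%, against 19.6%) and 6 lower (26.1%, against 19.7%). DHX34, a helicase that works with UPF1, rose in both lines, by 0.38 in MDA-MB-231 (edgeR adjusted p = 2.28e-06) and by 0.53 in SUM159PT (edgeR adjusted p = 2.70e-07). SMG5, which recruits phosphatase and decay enzymes, fell by 0.21 on the log2 scale in MDA-MB-231 (edgeR adjusted p = 0.000121). SMG8, a regulator of the kinase SMG1, rose by 0.61 in SUM159PT (edgeR adjusted p = 9.56e-07).

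Of 19 proteins of the snoRNA particles and their assembly, 2 were called higher in MDA-MB-231 (10.5%, against 20.8% of all genes tested). There 3 were called lower (15.8%, against 22.1%). In SUM159PT 6 were called higher (31.6%, against 19.6%) and 3 lower (15.8%, against 19.7%). FBL, the methyltransferase of C/D box particles, fell by 0.17 on the log2 scale in MDA-MB-231 (edgeR adjusted p = 0.000914) and by 0.15 in SUM159PT (edgeR adjusted p = 0.00338). NOP56, a core C/D box protein and itself a snoRNA host, had a log2 fold change of -0.06 in MDA-MB-231 (edgeR adjusted p = 0.357) and rose by 0.31 in SUM159PT (edgeR adjusted p = 1.93e-06).

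**Figure D5:**
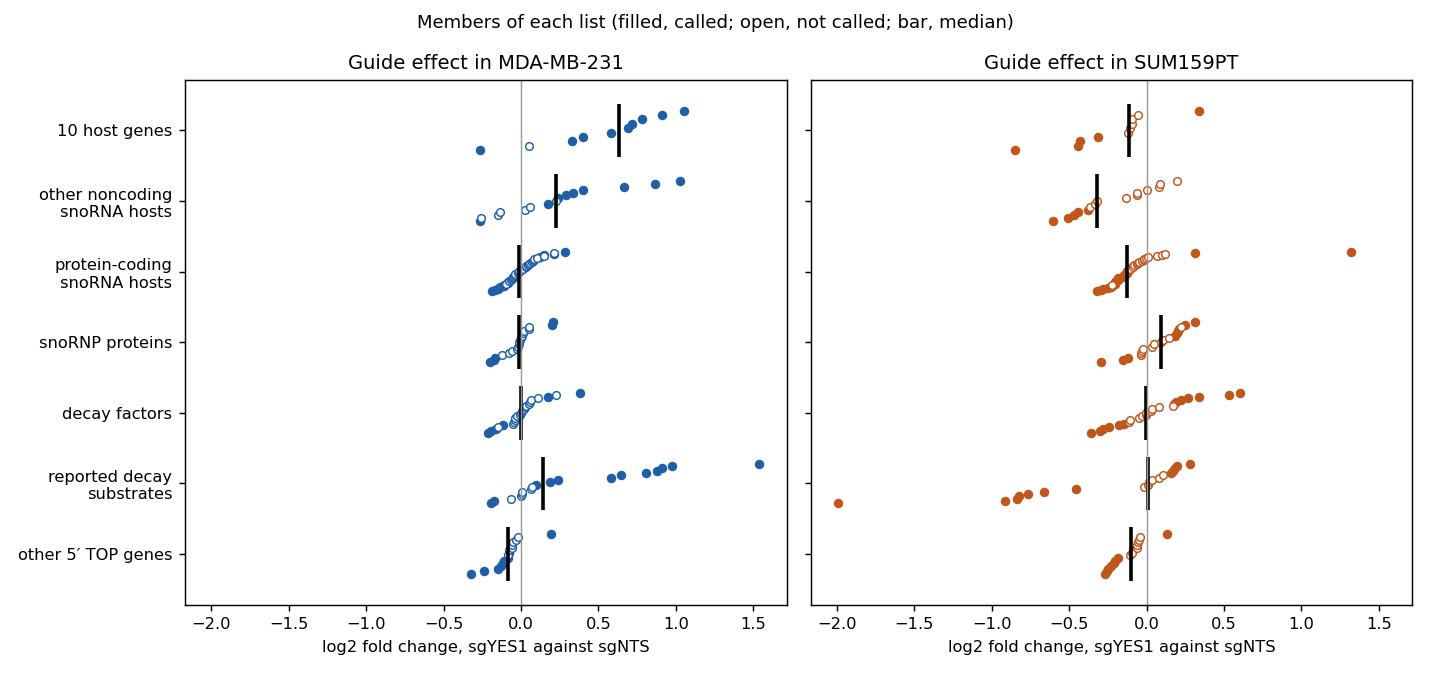
Log2 fold change, sgYES1 against sgNTS, of each tested gene of the host gene set and of 6 related lists, in MDA-MB-231 (left) and SUM159PT (right). Filled points are adjusted p under 0.05 and the black bar is the list's median, which for the 10 host genes is 0.64 in MDA-MB-231 and -0.11 in SUM159PT.

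Of 9877 other genes that averaged 5 CPM or more within both lines, those whose log2 CPM most closely followed the mean of the 10 hosts were ranked by the lower of the Pearson correlations within each line. Each correlation is over 8 libraries in 2 groups of 4, so it mostly reflects the guide difference, and it is a description of these libraries. THAP9-AS1 (0.97), EPB41L4A-AS1 (0.97), SAT1 (0.96), GADD45A (0.96) and ARRDC3 (0.96) came first. SAT1, a polyamine-catabolizing enzyme, had log2 fold changes of 0.98 and -0.42 in MDA-MB-231 and SUM159PT, and ARRDC3, an arrestin-domain protein, 0.62 and -0.76. THAP9-AS1, a noncoding RNA, had log2 fold changes of 0.26 in MDA-MB-231 and -0.36 in SUM159PT. All 5 genes were called in both lines, higher in MDA-MB-231 and lower in SUM159PT, the directions of the mean used for the ranking. Of the 5 genes, GADD45A and EPB41L4A-AS1 also belong to lists above. Not every host followed the mean of the other hosts. SNHG16 correlated with it at -0.77 in MDA-MB-231 and SNHG12 at -0.73 in SUM159PT. Weaker positive values were those of SNHG7 in MDA-MB-231 (0.526) and, in SUM159PT, of SNHG6 (0.404), SNHG15 (0.562), SNHG16 (0.612) and ZFAS1 (0.698). All remaining values lay between 0.857 and 0.987.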

How the data were processed

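Gene counts, not normalized, were deposited in 1 table per line. Alignment used HISAT2 2.0.5 on hg38 and counting used featureCounts 1.5.0-p3, per the submitters' processing notes, and all 58735 genes carried the IDs and positions of GENCODE 29. Per the labels' protocols, poly-A RNA was copied with random hexamers, and both directional and non-directional libraries are described. Counts were tested with edgeR 4.0.16 in R 4.3.3 (TMM scaling, filterByExpr with a smallest count of 10 and total of 15, quasi-likelihood F-test, Benjamini-Hochberg adjustment over all genes, called under 0.05, two-sided), within each line on 8 libraries and, for the interaction and the control contrast, on 16. Log2 CPM used a prior count of 2. All 10 members passed the filter in every comparison. Alternatives were DESeq2 1.42.0, library totals, no filter, a robust fit, a replicate block and leaving out each library. Leaving out both controls that stood apart, MDA-MB-231 sgNTS replicate 4 and SUM159PT sgNTS replicate 2, was chosen after seeing the data. No 2 replicates were alike within sampling noise, with a chi-square of at least 2.33 per degree of freedom, and each counted once. The code was tested on simulated data.

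Members and lists were chosen with earlier results of these data known. Named genes are the members, up to 4 genes per list with the smallest p in a line and their values in the other line, overlapping and snoRNA genes at the member loci, and the 5 most alike in level. SNHG14 was chosen after its values were seen.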

Additional observations from a re-analysis of the deposited data

Results flagged for a closer look

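For SNHG1, sgYES1 replicate 2 of MDA-MB-231 had 146 CPM, against 155 to 156 CPM in the other 3 libraries, a gap large for a group of 4. It was 1 of 40 member groups with such a library, and chance alone gives about 1 in 20. The guide effect differed between lines for 8 hosts in the interaction test. Taking the SUM159PT log2 fold change less the MDA-MB-231 one, the difference was -1.45 for SNHG8, -1.18 for ZFAS1, -1.11 for GAS5, -0.85 for SNHG1, -0.83 for SNHG6, -0.77 for SNHG5, -0.76 for SNHG15 and -0.58 for SNHG12.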

How the results depend on the processing

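Of 748 alternative values of single host genes and YES1, 741 kept their direction and their side of the threshold, 7 passed the threshold that the reported value missed, 0 lost a call and 0 changed sign. The 7 are SNHG7 and ZFAS1 in SUM159PT and SNHG7 and SNHG16 in the difference between lines. The number of hosts with a difference called higher in SUM159PT, 0 as reported, ranged from 0 to 1 when single libraries were left out. The fit with replicate number as a block made the same counts of member calls, 8 higher and 1 lower in MDA-MB-231 and 1 higher and 4 lower in SUM159PT. Same-numbered libraries correlated at -0.34 to 0.15, and some samples but not all correlated best with their own number. These values do not settle whether the numbers pair the samples. With library totals as the only scaling, 3956 genes were called higher and 2661 lower in MDA-MB-231, against 3205 and 3402, with a median shift of 0.05 (log2). In SUM159PT minus MDA-MB-231, the SNHG7 difference was -0.11 without MDA-MB-231 sgNTS replicate 4, against -0.17 as reported.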
